A study of Mus musculus with 12 samples.

Results

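The regions described here are 4741 sites of accessible chromatin in mouse dorsal root ganglia that had a peak summit in the wild-type injured list and in the Silc1-/- sham list, and none in the Silc1-/- injured or the wild-type sham list. They were found by pooling the 4 summit lists, joining neighbouring summits within 200 bp into loci, and keeping loci with that combination. They made up 6.05% of the 78381 loci. The sites were selected on the presence and absence of summits, which is therefore given only as a description, with no test. The lists that hold the sites share neither genotype nor treatment, and they are the longest of the 4, with 43841 summits (wild-type injured) and 48332 summits (Silc1-/- sham). The lists that lack them had 35815 summits (Silc1-/- injured) and 27279 summits (wild-type sham).

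ATAC-seq uses a transposase that cuts open DNA and tags it with adapters, and it was run as 12 libraries from freshly extracted L4-L6 ganglia, 6 per extraction. There were 3 libraries in each of 4 groups: Silc1-/- mice after sciatic nerve crush, wild-type (Silc1+/+) mice after crush, sham-operated Silc1-/- mice and sham-operated wild-type mice. The labels give a genotype and a treatment for each library, but no age, no time after surgery and no description of the Silc1 allele. They name purchased C57black6 Ola HSD males and strains bred in house, without saying which library came from which. Each group came with 1 list of summits, so the spread between animals is unknown and no difference was tested. Intervals below are 95% Wilson intervals that cover counting error only. Read totals are not in the files, so depth is unknown.

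Sensory neurons have their cell bodies in dorsal root ganglia and send axons through the sciatic nerve. Each neuron is wrapped by satellite glia, its axon by Schwann cells, and vessels, connective tissue and immune cells lie between them. After a crush, the neurons start a growth programme led by transcription factors such as Atf3, Jun and Sox11, and Silc1 is a long noncoding RNA known to promote Sox11 expression in these neurons. Open chromatin marks promoters and enhancers that factors can reach, and in whole ganglia a summit can appear because more cells carry the open site or because more copies are open in each cell, which cannot be told apart here. Whether a summit is listed also depends on the score cutoff of the list and on depth.

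Promoters are shown first, because the DNA under a site could be read only where a site fell in a promoter window (RefSeq, GRCm38.p6, from 250 bases before to 50 after a gene start). Of 32817 windows, 362 held a site (1.10%), at 336 genes, of which 269 were protein-coding. In 257 of the windows the site had no summit of either absent list within 1 kb. The 8 windows below contrast promoters rich and poor in CpG dinucleotides, which are written in capitals. Kat2a (chr11:100712418-100712717, minus strand), a histone acetyltransferase gene, and Slc50a1 (chr3:89270521-89270820, minus strand), a sugar transporter gene, held the highest-scoring isolated sites in windows with a CpG ratio of at least 0.5. Zfp955b (chr17:33289294-33289593, plus strand), a zinc finger gene, and Aox3 (chr1:58112886-58113185, plus strand), an aldehyde oxidase gene, held them in windows below 0.5. Sox8 (chr17:25570637-25570936, minus strand) and S100b (chr10:76253586-76253885, plus strand) are glial genes. Gria2 (chr3:80802786-80803085, minus strand) encodes an AMPA receptor subunit and Hoxd1 (chr2:74762730-74763029, plus strand) a homeobox factor of sensory neurons.
Kat2a: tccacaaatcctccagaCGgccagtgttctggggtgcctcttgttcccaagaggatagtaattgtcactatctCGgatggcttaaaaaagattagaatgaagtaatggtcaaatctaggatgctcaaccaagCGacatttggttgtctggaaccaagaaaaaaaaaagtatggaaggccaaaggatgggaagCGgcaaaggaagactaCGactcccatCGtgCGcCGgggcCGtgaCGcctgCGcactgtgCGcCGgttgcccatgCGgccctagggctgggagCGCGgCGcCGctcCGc
Slc50a1: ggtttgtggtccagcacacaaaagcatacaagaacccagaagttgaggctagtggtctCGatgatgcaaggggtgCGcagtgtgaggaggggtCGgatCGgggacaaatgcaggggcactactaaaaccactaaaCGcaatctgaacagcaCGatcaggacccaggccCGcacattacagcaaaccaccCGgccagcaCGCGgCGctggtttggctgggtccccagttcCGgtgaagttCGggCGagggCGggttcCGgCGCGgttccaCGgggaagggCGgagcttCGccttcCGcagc
Zfp955b: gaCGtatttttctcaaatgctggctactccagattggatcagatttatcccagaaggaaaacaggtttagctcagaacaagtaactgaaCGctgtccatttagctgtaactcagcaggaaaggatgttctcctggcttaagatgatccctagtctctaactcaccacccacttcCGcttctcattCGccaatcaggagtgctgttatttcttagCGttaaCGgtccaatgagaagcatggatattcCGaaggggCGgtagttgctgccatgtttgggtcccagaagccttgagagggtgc
Aox3: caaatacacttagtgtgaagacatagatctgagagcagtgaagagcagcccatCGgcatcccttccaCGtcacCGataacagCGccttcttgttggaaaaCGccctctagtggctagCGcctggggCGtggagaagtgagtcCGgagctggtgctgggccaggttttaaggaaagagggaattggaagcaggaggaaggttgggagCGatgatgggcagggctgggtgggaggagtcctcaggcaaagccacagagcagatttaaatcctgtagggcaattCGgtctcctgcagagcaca
Sox8: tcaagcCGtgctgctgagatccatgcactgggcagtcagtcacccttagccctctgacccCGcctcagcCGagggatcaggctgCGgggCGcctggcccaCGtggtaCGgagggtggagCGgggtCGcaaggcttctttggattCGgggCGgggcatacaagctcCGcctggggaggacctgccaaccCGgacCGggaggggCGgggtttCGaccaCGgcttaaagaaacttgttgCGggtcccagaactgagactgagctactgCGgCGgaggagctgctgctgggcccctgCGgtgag
S100b: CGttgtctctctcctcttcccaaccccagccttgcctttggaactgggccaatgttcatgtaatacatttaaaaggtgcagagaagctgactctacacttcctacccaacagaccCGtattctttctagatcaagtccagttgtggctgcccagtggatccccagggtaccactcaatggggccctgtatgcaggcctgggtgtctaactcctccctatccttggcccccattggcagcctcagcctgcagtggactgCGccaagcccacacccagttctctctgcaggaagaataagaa
Gria2: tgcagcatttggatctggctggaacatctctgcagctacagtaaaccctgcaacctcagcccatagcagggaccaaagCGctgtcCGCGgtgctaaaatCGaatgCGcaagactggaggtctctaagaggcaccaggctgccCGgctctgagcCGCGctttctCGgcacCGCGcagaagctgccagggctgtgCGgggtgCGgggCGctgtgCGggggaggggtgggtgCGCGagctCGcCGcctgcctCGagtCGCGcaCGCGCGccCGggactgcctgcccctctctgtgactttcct
Hoxd1: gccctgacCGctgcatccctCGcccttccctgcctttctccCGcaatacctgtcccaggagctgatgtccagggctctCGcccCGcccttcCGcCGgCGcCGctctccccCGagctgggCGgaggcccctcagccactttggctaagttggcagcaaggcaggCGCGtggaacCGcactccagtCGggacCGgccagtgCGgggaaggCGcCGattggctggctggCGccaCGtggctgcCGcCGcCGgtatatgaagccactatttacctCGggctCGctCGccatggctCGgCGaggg

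In S100b, which encodes a calcium-binding protein of Schwann cells and satellite glia, the site sat at the start itself (0 bp), with scores of 4.75 in the wild-type injured list and 6.64 in the Silc1-/- sham list. The score is the authors' value for a peak on a −log10 scale, and it depends on depth, so the paired scores are set side by side and not compared. The nearest Silc1-/- injured and wild-type sham summits to the S100b site were 16.0 and 15.9 kb away. The Sox8 site lay 137 bp before the start of this relative of Sox10, scored 5.04 and 4.88 in wild-type injured and Silc1-/- sham, and had its nearest summits 8.31 kb away in both absent lists. The same summit was nearer to Cerox1, a long noncoding RNA gene on the opposite strand, lying 6 bp before one of its starts and 12 bp past another. The Gria2 site, 1 bp before the start, scored 1.99 and 4.29 in those lists, and the Hoxd1 site, 4 bp before the start, scored 1.99 and 5.06. Around Gria2, Silc1-/- injured and wild-type sham summits were first met 60123 and 60106 bp away. The Kat2a site was 26 bp past the start with scores of 10.7 and 10.1, and the Slc50a1 site 21 bp past it with 11.9 and 9.72. Aox3 and Zfp955b held sites 173 and 97 bp before their starts, with scores of 8.23 and 12.1 for Aox3 and 9.88 and 8.73 for Zfp955b.

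The S100b window had 3 CpG dinucleotides in 300 bases, against 29 in Hoxd1 and 26 in Gria2. The CpG ratio (observed over expected from base content) was 0.145 in S100b, 0.464 in Aox3 and 0.483 in Zfp955b. It was 0.647 in Sox8 and between 0.799 and 0.864 in Slc50a1, Gria2, Hoxd1 and Kat2a. Over the 362 windows the median ratio was 0.647 and 120 windows (33.1%) fell below 0.5. The 7026 windows with a locus of all 4 lists had a median of 0.828, and 5.78% of them fell below 0.5. The 21635 windows without a summit had a median of 0.239, and 81.0% fell below 0.5, so the values of the promoters with these sites lay between those of constantly open promoters (a locus of all 4 lists) and of promoters without a summit. The 46 windows with a locus of the opposite combination, Silc1-/- injured and wild-type sham, had a median of 0.796, and 8.70% fell below 0.5. Windows whose locus was in the wild-type injured list alone or the Silc1-/- sham list alone had medians of 0.538 and 0.580. Median GC content was 58.5% in the promoters with these sites, against 63.3% in constantly open promoters and 52.7% over all windows.

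Short motif letters were searched on both strands of the windows. A match is a description of the letters and not a bound site. The GC box letters GGGCGG, read by Sp and KLF factors, were in 54.1% of the 362 windows, against 74.9% of constantly open windows and 35.6% of all windows. They matched in Slc50a1, Sox8, Hoxd1 and Zfp955b. The CTCF letters AGGGGGC, which can overlap a GC box, were in 21.5% (17.6 to 26.1%), against 17.3% of constantly open windows and 10.6% of all windows. Some windows of the same gene overlap and share a site and its letters, which this interval does not take into account. The ETS letters CCGGAAGT were in 6.91%, the NRF1 letters GCGCATGC in 3.59% and the NF-Y letters CCAATCA in 5.25%. Constantly open windows held these in 11.4%, 6.89% and 15.2%, and all windows in 3.89%, 2.71% and 7.80%. NF-Y letters matched in Zfp955b. The AP-1 letters TGANTCA, read by Fos, Jun and Atf3 family dimers, were in 5.25% of the windows with these sites, against 3.71% of constantly open and 7.81% of all windows. The CRE letters TGACGTCA were in 2.21%, against 4.30% and 1.79%. The SOX letters ACAATGG were in 1.66%, against 1.49% and 3.67%, and the PU.1 letters GAGGAAGT in 4.70%, against 2.83% and 3.20%. The TEAD letters GGAATG were in 13.0%, against 9.71% of constantly open and 14.7% of all windows. The E-box letters CAGATG were in 13.8%, against 9.04% and 17.2%, and the homeodomain letters TAATTA in 2.76%, against 1.31% and 5.30%. POU4F1 ATAATTAA, which contains the homeodomain letters, was in 0.552%, against 0.213% and 1.19%, and RFX GTTGCCAT in 1.66%, against 1.15% and 1.34%. MEF2 CTATTTTTA was in 0 of 362 windows, which allows a share of up to 0.829% (3 counts of 362), against 0.242% of constantly open and 0.494% of all windows. Kat2a, Aox3, S100b and Gria2 matched none of the 15 motifs.

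Across the whole set, the sites were the largest of the 6 classes of loci with exactly 2 lists. The opposite combination, Silc1-/- injured and wild-type sham, held 907 loci. The classes that share a genotype held 3431 loci (both Silc1-/- lists) and 1867 loci (both wild-type lists), and those that share a treatment held 2130 loci (both injured lists) and 1181 loci (both sham lists). List length moved with these counts. When each list was cut to its 27279 highest-scoring summits, the length of the shortest, 1618 loci had the wild-type injured and Silc1-/- sham combination and 1572 the opposite one. Of the 4741 sites, 1372 (28.9%) still belonged to the class then. At equal lengths both wild-type lists alone (2019 loci) and both Silc1-/- lists alone (1816 loci) were larger classes.

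**Figure D1:**
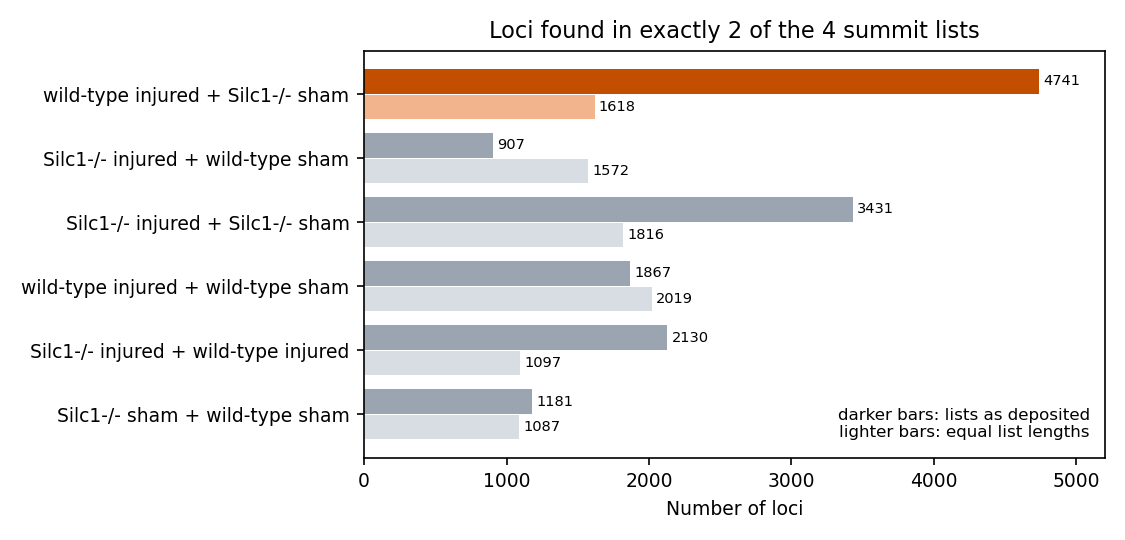
Number of loci with summits in exactly 2 of the 4 lists, for the lists as deposited (darker bars) and cut to equal length (lighter bars), with the wild-type injured and Silc1-/- sham sites in orange. The orange bars stand at 4741 and 1618 loci, and the bars of the opposite combination at 907 and 1572.

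The sites had lower median scores than the lists they came from, and 2005 of them (42.3%) scored under 5 in both lists. The score in the wild-type injured list had a median of 4.49 (quartiles 3.18 and 6.45), where the whole list had 5.72, and the score in the Silc1-/- sham list had a median of 4.29 (quartiles 3.01 and 6.20), where the whole list had 4.97. Taking the lower of a site's paired scores as its strength, the median was 3.18, against 11.8 for loci in all 4 lists. Loci absent from wild-type sham alone had a median lower score of 3.82 and loci absent from Silc1-/- injured alone 4.50. Low scores came in steps: 45.7% of the sites had one of only 6 values between 1.99 and 5.19 in the wild-type injured list, and 40.0% one of 6 values between 1.87 and 4.97 in the Silc1-/- sham list. Of loci in all 4 lists, 8.17% and 8.52% had those values. A lower score of at least 5 was reached by 910 sites (19.2%) and of at least 10 by 115 (2.43%).

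Of the 25413 loci with a summit in both the wild-type injured and the Silc1-/- sham list, 18.7% were these sites. The share depended on strength. It was 47.7% at lower scores of 1.32 to 2.42, 19.9% at lower scores of 4.97 to 6.40, and 1.10% (0.763 to 1.59%) at 28.2 or more. The share in all 4 lists ran the other way, from 17.5% at the lowest scores to 95.8% at the highest. Raising the score minimum in every list therefore changed which loci were counted: with a minimum of 10 the class held 1247 loci, but 115 of them were among the 4741, and the others lay in loci that held a summit of an absent list before the minimum was raised.

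**Figure D2:**
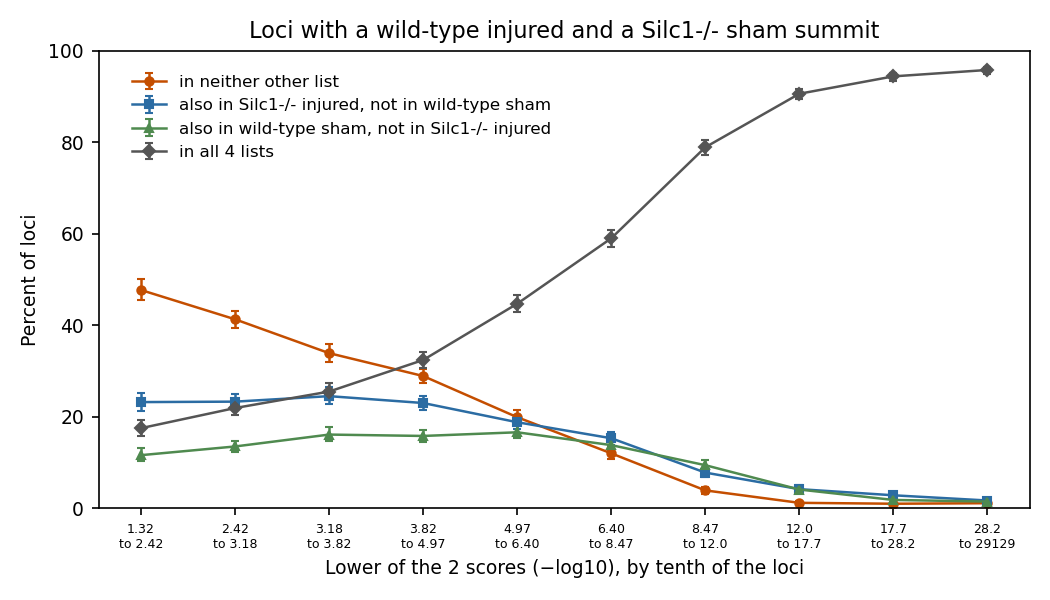
Share of the loci with a wild-type injured and a Silc1-/- sham summit that lay in neither, 1 or both of the other lists (y axis, percent, bars are 95% Wilson intervals), by the lower of the paired scores (x axis, −log10, deciles of the loci with ties kept together). The orange share falls from 47.7% to 1.10% while the share in all 4 lists reaches 95.8%.

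The paired summits of a site lay close together, which the 200 bp joining distance largely fixes. Their offset had a median of 38 bp (quartiles 13 and 71 bp), against 36 bp at loci in all 4 lists, and 107 sites (2.26%) had both summits on the same base. Almost every site, 4657 of 4741 (98.2%), consisted of 1 summit from each list. With joining distances of 50 and 500 bp the median offset was 17 and 41 bp.

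Some sites had a summit of an absent list not far off. Within 1 kb, 787 sites (16.6%) had a Silc1-/- injured summit, 640 (13.5%) a wild-type sham summit and 496 (10.5%) both, so that 931 (19.6%) had at least 1 of them. At the other extreme, 2441 sites (51.5%) had none of either list within 10 kb. The median distance was 13688 bp to the nearest Silc1-/- injured summit and 19766 bp to the nearest wild-type sham summit, the wild-type sham list being the shorter. A locus of the opposite combination lay within 1 kb of 122 sites, and 120 of the 907 such loci (13.2%) had one of the 4741 sites within 1 kb. Of those 907 loci, 411 had no summit of their own absent lists within 1 kb, against 3810 of the 4741 sites. The lists absent from the opposite combination are the longer ones.

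**Figure D3:**
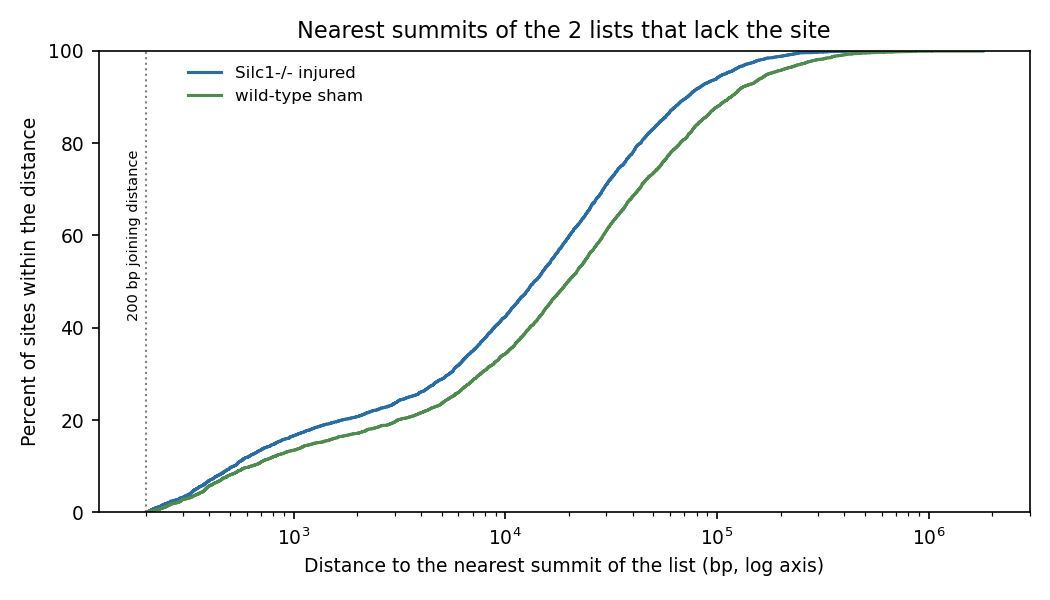
Cumulative percent of the 4741 sites (y axis) with a summit of the Silc1-/- injured (blue) or wild-type sham (green) list within the distance on the x axis (bp, log axis). The dotted line is the 200 bp joining distance, and the blue and green curves stand at 16.6% and 13.5% at 1 kb.

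Closeness to an absent list was most common among the strongest sites. Of the 46 sites with a lower score of at least 20, 43 (93.5%, 82.5 to 97.8%) had an absent-list summit within 1 kb, against 675 of 3831 (17.6%) with a lower score under 5. The strongest site, at chr1:133595232, 8.64 kb from the spliceosome gene Snrpe, scored 174 in wild-type injured and 155 in Silc1-/- sham, with Silc1-/- injured and wild-type sham summits at 285 and 251 bp. Next was a site 5.57 kb from the esterase gene Aadac (chr3:60045725), with scores of 135 and 164 and the absent lists' summits at 367 and 491 bp. At the rule's edge, sites near Rack1 (chr11:48800030, scores 14.2 and 10.4) and inside the adhesion gene Lsamp (chr16:41575686, scores 19.1 and 34.6) lay 201 bp from an absent-list summit. Loci in Gm26861 (chr13:10517092, scores 1.99 and 8.73) and in LOC115488671 (chr16:11248924, scores 23.0 and 14.3) were left out because the gap was 200 bp.

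**Figure D4:**
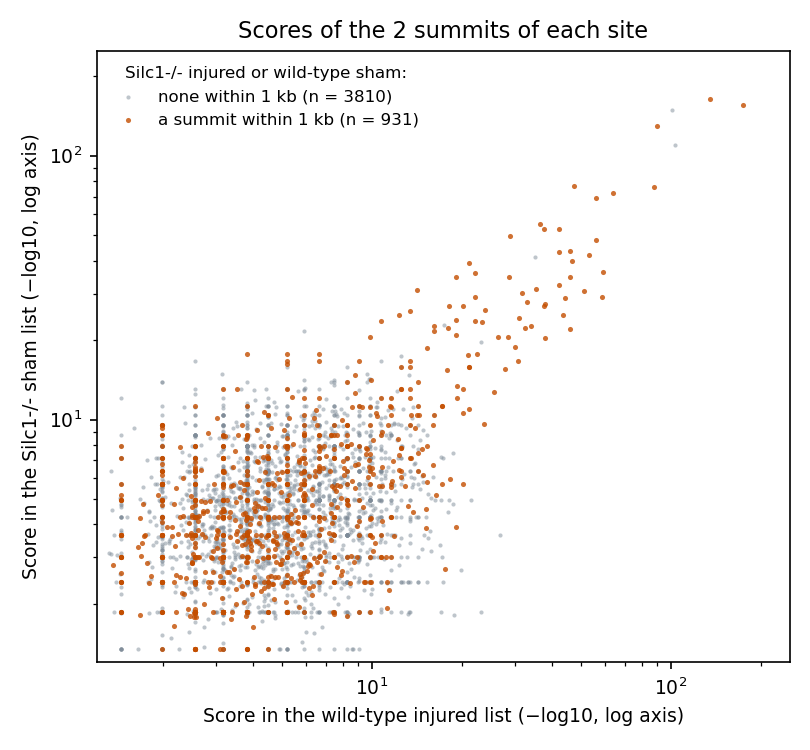
Score of each site in the wild-type injured list (x axis) and the Silc1-/- sham list (y axis), both on log axes, with sites that have a Silc1-/- injured or wild-type sham summit within 1 kb in orange (931) and the others in grey (3810). Nearly all points in the upper right, 43 of the 46 with both scores at 20 or more, are orange, and low scores fall on repeated values.

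Strong sites without such a neighbour were few. The site 12.8 kb from the long noncoding RNA gene Gm46074 (chr8:20665185) scored 101 in wild-type injured and 150 in Silc1-/- sham, and Silc1-/- injured and wild-type sham summits followed at 3.08 and 3.18 kb. A site 12.4 kb from Ifngr2, which encodes a chain of the interferon gamma receptor, scored 35.1 and 41.3 at chr16:91534676, and both absent lists had their first summit 12.4 kb away. Inside Ltbp2, which encodes a protein of elastic fibres in the matrix, a site at chr12:84784705 scored 13.3 and 14.8, with absent-list summits at 11.6 kb in both lists. The site 22.1 kb from the matrix gene Hmcn1 (chr1:150540423) scored 12.5 and 15.8, with the Silc1-/- injured and wild-type sham lists at 85.2 and 85.1 kb. A site inside the complement gene C8g, 85 bp from an end of its neighbour Fbxw5 (chr2:25500835), scored 12.2 and 12.8, with the Silc1-/- injured and wild-type sham lists at 14.8 and 39.8 kb. Inside the tetraspanin gene Tspan32 (chr7:143008244) the scores were 11.7 and 10.9 and the absent lists 44.5 and 44.6 kb off. The Hmcn1, C8g and Tspan32 sites thus lay farther from both absent lists than the median site.

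Most sites lay away from gene ends. Counting protein-coding and long noncoding RNA genes, 945 sites had a gene end within 1 kb (19.9%, 18.8 to 21.1%), as did 55.6% of loci in all 4 lists, 20.4% of the opposite combination and 24.2% of all loci. Loci of the wild-type injured list alone and the Silc1-/- sham list alone were at gene ends in 16.6% and 12.3%. Among the 931 sites with an absent-list summit within 1 kb the share was 36.5%, and among the other 3810 it was 15.9%. Inside genes lay 60.3% of the sites, against 58.3% of all loci. Where strand was known, a gene start was within 1 kb for 15.8% of the sites and only the other gene end for 2.49%, against 51.0% and 1.31% of loci in all 4 lists.

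The 8 strongest sites at ends of protein-coding genes, of which 7 are given here, all had absent-list summits within 1 kb. At Zrsr1, an imprinted splicing factor gene inside Commd1, the site (chr11:22971981) scored 56.0 in wild-type injured and 48.1 in Silc1-/- sham, with Silc1-/- injured and wild-type sham summits at 696 and 937 bp. At the small GTPase gene Rap2a (chr14:120478260) the scores were 59.3 and 36.3 and the absent-list summits at 722 and 753 bp. At the chaperone gene Hsph1 (chr5:149636753) they were 46.5 and 39.9, with summits at 235 and 363 bp. Slc25a42, a mitochondrial carrier gene, and Agpat1, an acyltransferase gene of phospholipid synthesis, held sites scoring 53.2 and 42.2, and 51.2 and 30.6, in the same order of lists. Larp7 and Srsf7, whose proteins bind RNA, held sites scoring 44.3 and 28.9, and 38.0 and 27.3. In these 4 genes the absent lists had summits between 259 and 410 bp away. Those summits thus lay near the same gene end but farther from the site than the joining distance.

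Some genes held several sites. Of 21883 protein-coding genes, 2147 had at least 1 site inside and 19 had 4 or more. Of all loci inside protein-coding genes, 6.17% were these sites. The genes named here were picked for their number of sites, so their higher shares follow from that choice. Pakap, which encodes an anchor of protein kinase A, and Nav2, a neuron navigator gene, had 6 each, of 28 and 37 loci inside, and the postsynaptic scaffold gene Dlgap1 had 5 of 34. Pakap, Nav2 and Dlgap1 are long genes, of 463, 651 and 852 kb. Ostf1 was the densest of the 10 genes with most sites, with 4 of its 8 loci in 51.5 kb. The Ostf1 sites scored 13.4 and 4.21 (chr19:18599276), 8.84 and 3.94 (chr19:18603132), 6.29 and 3.26 (chr19:18630597) and 2.57 and 3.57 (chr19:18591286) in wild-type injured and Silc1-/- sham. In Nav2, 4 sites lay between chr7:49121261 and chr7:49132953, and the strongest of them scored 14.4 and 5.45, with the nearest Silc1-/- injured and wild-type sham summits 25023 and 124655 bp away. This strongest site, at chr7:49121486, lay only just past the joining distance from the site at chr7:49121261. Itpr1, the IP3 receptor calcium channel gene, had 4 of 19 loci, with scores up to 10.7 and 4.49 at chr6:108537141. Aven, Baz2b, Frmd4b, Gse1 and Aopep also had 4 each. At equal list lengths 0 genes had 4 or more sites.

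Of the protein-coding genes, 32.8% had a site inside or within 50 kb of an end, and 6.29% of the loci in that reach of any protein-coding gene were these sites. The 17 gene lists, for the cells of the ganglion, the injury response and genes outside both, were read against those shares. A site counted for a gene may lie nearer to another gene.

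Genes of Schwann cells and satellite glia had the highest share of the 17 lists as deposited: 22 of 218 nearby loci (10.1%, 6.76 to 14.8%), at 17 of 30 genes. For Prx, which encodes the myelin protein periaxin, a site lay 6.63 kb away (chr7:27526671). It scored 5.86 in wild-type injured and 9.97 in Silc1-/- sham, with both absent lists 16.1 kb away. Inside Pmp22, a further myelin gene, the site at chr11:63135833 scored 6.48 and 4.79. The site 6.18 kb from Sox10, the master regulator of peripheral glia, scored 7.33 and 4.16 (chr15:79148730), with Silc1-/- injured and wild-type sham summits at 7.39 and 7.45 kb. Cadm4, an adhesion gene of myelinating Schwann cells, had the strongest site of the list, 27.3 kb away (chr7:24531847, scores 10.1 and 7.22). Inside Gfap, the intermediate filament gene of glia, a site at chr11:102893101 scored 4.81 and 5.90. Kcnj10, the potassium channel gene of satellite glia, and Apoe held sites inside the gene with scores of 2.57 and 3.01, and 5.65 and 1.97. Sites of Sox8 and S100b are the promoter sites shown above. All 4 lists had summits near these genes, with 101 in the Silc1-/- injured list, 144 in the wild-type injured list, 145 in the Silc1-/- sham list and 91 in the wild-type sham list. In the same order, 29092, 37072, 40081 and 22987 summits lay near all protein-coding genes. The share of the sites among loci near the glial genes was 5.51% at a score minimum of 5, where the loci near all protein-coding genes had 6.60%. It was 6.54% at equal list lengths, against 3.28%, and 17.6% inside the genes alone, against 6.17%. The rank also depended on the setting. At the score minimum, neutrophil genes with 14.3%, lymphocyte genes with 12.1% and immediate-early genes with 8.97% were among the lists above the glial one. At equal lengths vomeronasal receptor genes had 6.90% and neutrophil genes 6.67%, and without sites near an absent-list summit fibroblast genes had 9.09%, against 8.26% for the glial list.

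**Figure D5:**
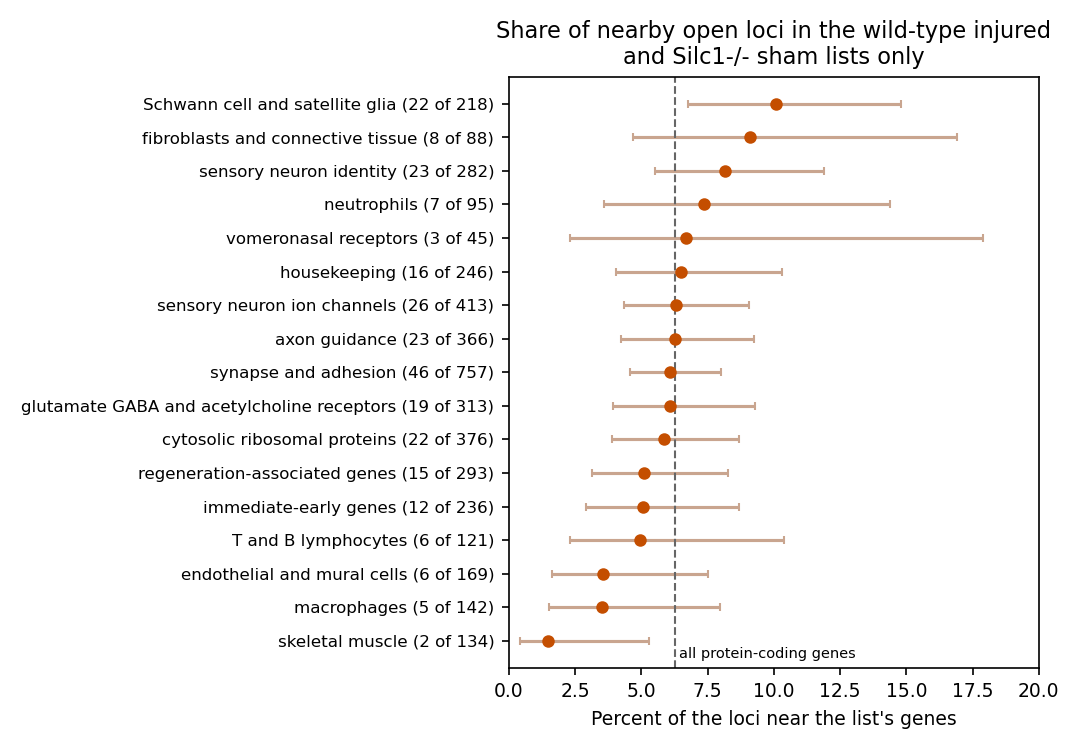
Percent of the loci inside or within 50 kb of the genes of each list that were wild-type injured and Silc1-/- sham sites (points, with 95% Wilson intervals), with the number of sites and loci in brackets. The dashed line is the 6.29% over all protein-coding genes, and the interval of the glial list lies above it while that of skeletal muscle lies below it.

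Sensory neuron identity genes had 23 of 282 nearby loci (8.16%, 5.50 to 11.9%), at 17 of 35 genes. The interval includes the background of 6.29%. At equal list lengths the share was 2.82%, below the 3.28% near all protein-coding genes. At a score minimum of 5 it was above the 6.60% of that setting. Pou4f1, a founding transcription factor of these neurons, had a site 6.51 kb away (chr14:104474630) with scores of 5.46 in wild-type injured and 9.06 in Silc1-/- sham, and Silc1-/- injured and wild-type sham summits at 48.0 and 6.60 kb. Runx1, which specifies pain-sensing neurons, held 2 sites inside, at chr16:92606127 (4.24 and 3.95) and chr16:92635254 (3.40 and 8.01). Hoxd1 had 3 sites within 50 kb, the promoter site and others at 0.936 and 13.0 kb. Sites also lay 17 bp from an end of Prph, the peripherin gene (2.36 and 2.20), and 0.650 kb from the neuronal tubulin gene Tubb3 (4.02 and 4.49). The site 12.2 kb from the receptor gene Mrgprd (chr7:145302652) scored 7.41 and 4.63, and both absent lists were 18.6 kb away. Summits near the list's genes numbered 117 in the Silc1-/- injured list, 136 in the wild-type injured list, 200 in the Silc1-/- sham list and 90 in the wild-type sham list. Near all protein-coding genes the numbers were 29092, 37072, 40081 and 22987, in the same order.

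Other neuronal lists were close to the background of 6.29% in the lists as deposited. Ion channel genes of sensory neurons had 26 of 413 loci (6.30%), at 18 of 37 genes. Sites lay 0.82 kb from Kcnd3, a potassium channel gene (chr3:105674822, scores 8.23 and 6.07), inside the cold channel gene Trpm8 (chr1:88357671, 5.19 and 6.40), inside the acid-sensing channel gene Asic1 (chr15:99688926, 4.10 and 9.17) and inside the pacemaker channel gene Hcn2 (chr10:79726314, 3.98 and 10.6). Glutamate, GABA and acetylcholine receptor genes had 6.07%, with sites 3.86 kb from Grik5 (14.3 and 7.72) and inside Grm5 (7.44 and 7.16). Synapse and adhesion genes had 46 of 757 loci (6.08%), at 23 of 44 genes, and axon guidance genes 6.28%. The strongest isolated synaptic site lay inside Syn3, a synapsin gene (chr10:86463986, 9.61 and 13.9), with the absent lists at 35.0 and 19.1 kb. At equal list lengths the ion channel, receptor, synapse and guidance lists had 2.48%, 1.10%, 2.49% and 0.971%, against a background of 3.28%. At a score minimum of 5 these lists had 7.06%, 4.17%, 6.06% and 2.84%, in that order, against 6.60%.

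Shares near genes of the injury response were below the background in the lists as deposited, with intervals that include it. Regeneration-associated genes had 15 of 293 nearby loci (5.12%, 3.13 to 8.27%), at 14 of 41 genes. The site 44.2 kb from Atf3, the injury-induced transcription factor, was the strongest of them (chr1:191126110), with scores of 14.3 in wild-type injured and 11.2 in Silc1-/- sham and absent-list summits at 5.13 and 5.12 kb. It lies 0.782 kb from the long noncoding RNA gene Gm46178. Gap43, a growth cone gene, held a site inside (chr16:42276673, 4.49 and 3.01), and Socs3, the inhibitor of cytokine signalling, had a site 5.98 kb away (chr11:117976312, 13.1 and 3.01). Csf1, which recruits macrophages, had a site 317 bp from an end (chr3:107740731, 3.82 and 4.97), with both absent lists at 19.5 kb. Stat3 and Gadd45a had sites 17.8 and 24.3 kb away with scores of 6.86 and 4.45, and 8.49 and 6.63. Immediate-early genes had 12 of 236 loci (5.08%, 2.93 to 8.68%), at 10 of 22 genes. At a score minimum of 5 the immediate-early share was 8.97%, above the 6.60% of that setting, and the regeneration-associated share was 4.55%, below it. At equal list lengths the immediate-early and regeneration-associated shares were 1.56% and 1.99%, both below the 3.28% of that setting. A site 305 bp from an end of Fos (chr12:85473585) scored 8.97 and 6.80, and Silc1-/- injured and wild-type sham summits lay 0.296 and 0.298 kb from it. Egr4 had a site 8.06 kb away (6.60 and 8.45) with both absent lists at 51.1 kb. The site at chr8:84689238 (13.5 and 6.04) lies within reach of both the early gene Ier2 and the calcium channel gene Cacna1a.

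The Sox11 and Silc1 neighbourhood held no site within 50 kb. The gene table does not list the name Silc1, and Gm9866 on chromosome 12 is taken to be this gene from general knowledge. The nearest site, at chr12:26202917, was 1131 kb from Sox11 and 938 kb from Gm9866, and scored 3.18 in wild-type injured and 3.01 in Silc1-/- sham.

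Around genes of the other cell types of the ganglion there were between 5 and 8 sites per list. Macrophage genes had 5 of 142 nearby loci (3.52%, 1.51 to 7.98%), at 3 of 18 genes, and 3 of these sites lay around Spi1, the gene of the myeloid factor PU.1. Inside Spi1 the sites scored 7.35 and 6.76 (chr2:91101622) and 9.15 and 3.63 (chr2:91096734) in wild-type injured and Silc1-/- sham. Neutrophil genes had 7 of 95 loci (7.37%), among them a site 6.04 kb from the chemokine receptor gene Cxcr2 (10.7 and 4.29). Lymphocyte genes had 6 of 121 (4.96%), 4 of them around Cd4. Endothelial and mural genes had 6 of 169 (3.55%), the strongest inside Vwf, the gene of von Willebrand factor (chr6:125604613, 9.30 and 9.67). Fibroblast genes had 8 of 88 (9.09%, 4.68 to 16.9%), 3 of them around the fibrillin gene Fbn1. The fibroblast share was 1.67% at equal list lengths, against 3.28% near all protein-coding genes, and 5.41% at a score minimum of 5, against 6.60%. Skeletal muscle genes, of a tissue outside the ganglion, had 2 of 134 (1.49%, 0.410 to 5.28%). Ribosomal protein genes had 5.85%, housekeeping genes 6.50% and vomeronasal receptor genes 6.67% (3 of 45 loci).

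By chromosome, the sites made up 5.33 to 6.97% of the loci on autosomes, 4.92% (119 of 2417) on the X and 3.56% (9 of 253) on the Y chromosome.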

How the data were processed

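Groups came from the genotype and treatment labels. The authors deposited 1 list of summits per group, each line giving a position and a −log10 score, made from p-values or q-values without saying from which. Per the submitters' processing notes, the tools were Bowtie2 and MACS2 and the build mm10; versions, read filters, any shift of insertion positions and pooling of the 3 libraries of a group were not given in the sources used here. Scores in every list start at or above 1.30, the −log10 of 0.05. Scores were used within a list, except that the lower of a locus's paired scores ranked loci and a locus's position was its highest-scoring summit.

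Summits within 200 bp were joined to loci with Python 3.11.15, numpy 2.4.6 and pandas 2.3.3, and plotted with matplotlib 3.10.9. Only the joining of summits and the distance to the nearest summit were tested on simulated data. The simulated loci lay farther apart than the joining distance, so close neighbours were not covered. With 1 list per group no test was made. Genes, strands and promoters came from RefSeq tables of GRCm38.p6, the build named mm10; positions are 1-based. Strand was known for 27024 of 34610 genes. All symbols of the 17 gene lists matched. The members, the gene lists and the naming rule were chosen with earlier results of these data known. Named were, on autosomes or the X, the 12 strongest isolated sites and the 8 strongest at protein-coding gene ends, then the 10 genes with most sites, up to 4 genes of each list, the sites at the joining limit, and Sox11 with Silc1, of which a part is given; the strongest sites of all, the other gene list members and the printed promoters were chosen after their values were seen.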

Additional observations from a re-analysis of the deposited data

How the results depend on the processing

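No paired analysis was possible because each group has 1 summit list. Joining distances of 50 to 1000 bp kept the class between 4042 and 4913 loci, but 2890 of the 4741 sites stayed in it at 50 bp and 3604 at 1000 bp. It held 2338 loci at a score of at least 5, 1247 at 10, 1618 at equal list lengths and 2441 with no absent-list summit within 10 kb. The opposite combination held 1525, 532 and 445 loci at 50, 500 and 1000 bp, 428 and 172 at scores of at least 5 and 10, 1572 at equal lengths, and 411 and 251 with 1 and 10 kb. The share at gene ends was 26.7% at 50 bp, 17.5% at 500 bp, 32.8% at a score of at least 5, 23.9% at equal lengths, 15.9% without sites near an absent-list summit, and 13.8% and 29.3% with gene ends of 500 and 2500 bp. Of loci in both lists, the sites were 16.2% at 500 bp and 9.65% at equal lengths. An absent-list summit within 1 kb was found for 6.09% at 500 bp, where the larger joining distance itself removes close ones, and 20.8% at equal lengths. Genes with a site were 30.4% at 500 bp, 22.0% at a score of at least 5, 14.9% at equal lengths, 27.4% without sites near an absent-list summit, 16.2% with 10 kb, 31.6% without gene interiors and 9.81% inside genes alone. Genes with 4 or more sites numbered 0 at equal lengths, and promoters with a CpG ratio below 0.5 made up 40.1% without sites near an absent-list summit. The cause of these shifts was not tested. Of the values of the main results under alternatives, 14 stayed within the limit set for their kind of value and 32 moved beyond it. Of the values of the single gene lists, 93 moved by less than their counting interval and 26 by more. The alternatives with no absent-list summit within 1 or 10 kb were planned for the sizes of the class and of the opposite combination; those for gene ends, genes with a site, gene lists and promoters, all those on distances and clusters, and the one without unplaced sequences were chosen after seeing the data. The planned windows of 100 and 300 bp around summits and the motif search beyond 1 kb from gene ends were not run, since a genome sequence was not used here.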
